A study of Homo sapiens with 42 samples.

Results

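BTG1, BTG2, BTG3, TOB1 and TOB2 are 5 members of the BTG/TOB family of antiproliferative genes, and their RNA was followed in untreated and treated cells of the K562 line, which comes from a patient with chronic myeloid leukemia and carries the BCR-ABL1 onco-kinase. The members were chosen by name and taken from the count tables by their Ensembl identifiers, which gave 5 of the 58243 rows of each table. A related gene, BTG4 (ENSG00000137707), which is known from oocytes, had 0 or 1 read pairs in each library and was not tested. All 5 members passed the filter on low counts in both kinds of RNA, along with 18095 genes in whole-cell mRNA and 21929 in nuclear RNA.

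The data were 42 libraries in 14 groups of 3 biological replicates, 27 libraries of poly(A)-selected mRNA from whole cells in 9 groups and 15 libraries of rRNA-depleted RNA from isolated nuclei in 5 groups. CTRL cells were untreated. Imatinib (IM), an inhibitor of the BCR-ABL1 kinase, was given at 1 μM for 1 hour, 6 hours or 18 hours. JTE-607 (JTE), a compound that inhibits CPSF73, the endonuclease that cuts pre-mRNA at the polyadenylation site, was given at 5 μM for the same 3 times, and hyperosmotic shock was set off with 110 mM KCl for 1 hour or 3 hours. Nuclear RNA was taken from CTRL, IM 1h, IM 18h, JTE 1h and KCl 1h cells. The line carries the same leukemic genotype in every group, and each group within a fraction is compared with the same 3 CTRL libraries, so the differences from CTRL share their control.

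Proteins of this family carry a BTG domain at the amino end, through which they bind the CNOT7 and CNOT8 deadenylases of the CCR4-NOT complex, and TOB1 and TOB2 also bind the cytoplasmic poly(A)-binding protein. By recruiting these enzymes they speed up the shortening of poly(A) tails and the decay of mRNA, and overproduction of a member slows the passage of cells from G1 to S phase. BTG1 is known as a target of FOXO transcription factors and is often mutated in B cell malignancies, and BTG2 is known both as a p53 target and as a gene induced early by growth factors and stress. TOB1 and TOB2, named as transducers of ERBB2, are controlled by ERK phosphorylation at the protein level. Protein levels and phosphorylation were not measured here.

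The 5 genes lie on 5 chromosomes of the hg38 genome. The exons of BTG1 (ENSG00000133639) covered 4854 bases of chr12:92140278-92145897 on the minus strand, and those of BTG2 (ENSG00000159388) covered 2757 bases of chr1:203305491-203309602 on the plus strand. BTG3 (ENSG00000154640) spanned chr21:17593653-17612947 on the minus strand with 2306 exonic bases, TOB1 (ENSG00000141232) chr17:50862223-50867978 on the minus strand with 2521, and TOB2 (ENSG00000183864) chr22:41433492-41447023 on the minus strand with 4565. The counts were made without a strand option and with no option listed for counting a pair to several genes. Pairs that fit a member and an overlapping gene alike were thus left unassigned. LINC01619, on the same strand, shared 503 bases or 10.4% of the BTG1 exons, BTG1-DT shared 325 bases or 6.70% of them from the opposite strand, BTG3-AS1 shared 280 bases or 12.1% of the BTG3 exons, and TOB1-AS1 shared 281 bases or 11.1% of the TOB1 exons. Over these 4 neighbours the mean level in CTRL mRNA was between 0.197 and 1.59 CPM (read pairs scaled to the library total). No gene of the annotation overlapped BTG2 or TOB2.

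The promoters of BTG1 and BTG2 are shown because these were the members that rose under imatinib. Each line gives the 250 bases before the start of the gene in RefSeq, 5′ to 3′ on the strand of the gene, in the GRCh38.p14 build, at chr12:92145847-92146096 on the minus strand for BTG1 and at chr1:203305269-203305518 on the plus strand for BTG2. Capitals mark matches to TGTTTAC (the forkhead motif bound by FOXO factors), TGACG (the half-site of the cyclic AMP response element), CCAAT and TATAAA, each read on either strand, so that CGTCA and ATTGG are matches on the opposite strand.
BTG1: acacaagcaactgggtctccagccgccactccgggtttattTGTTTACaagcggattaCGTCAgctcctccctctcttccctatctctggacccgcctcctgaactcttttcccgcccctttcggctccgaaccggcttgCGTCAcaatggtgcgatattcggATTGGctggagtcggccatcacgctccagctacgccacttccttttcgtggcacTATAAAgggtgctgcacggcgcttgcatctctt
BTG2: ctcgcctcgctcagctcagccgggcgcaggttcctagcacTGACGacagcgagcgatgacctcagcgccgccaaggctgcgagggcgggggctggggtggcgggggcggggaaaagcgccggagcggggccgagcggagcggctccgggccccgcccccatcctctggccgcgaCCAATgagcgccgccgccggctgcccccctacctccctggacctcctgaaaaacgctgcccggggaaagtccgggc

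In the BTG1 window the forkhead letters began 209 bases before the start, 2 half-sites of the cyclic AMP response element lay 192 and 110 bases before it on the opposite strand, and TATAAA lay 33 bases before it. In the BTG2 window 1 half-site lay 210 bases and a CCAAT box 76 bases before the start, and neither TGTTTAC nor TATAAA was found. TGTTTAC was in none of the windows of BTG3, TOB1 and TOB2. TGTTTAC was found on either strand in 2.98% of the 34943 RefSeq promoter windows of this length, TGACG in 21.2%, CCAAT in 32.0% and TATAAA in 10.8%. The STAT letters TTCNNNGAA, present in 6.56% of all windows, and the full element TGACGTCA, present in 1.63%, were in none of the 6 windows of the 5 genes, since TOB1 has a pair of listed starts. GC content was 56.4% for BTG1, 74.8% for BTG2, 78.4% for BTG3 and 68.4% for TOB2, and 38.4% and 80.4% at the TOB1 starts. The motifs were picked after the values of these genes were known, and a match describes the letters in the window and nothing more.

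The libraries held between 16175394 and 25103205 read pairs assigned to genes, apart from replicates 2 and 3 of KCl 1h mRNA with 62953314 and 42474454. Counts for the members ran from 84 read pairs (BTG2 in a JTE 1h library) to 3079 (BTG2 in a nuclear IM 18h library). All 14 erythroid and K562 marker genes were above 1 TPM (read pairs scaled to exon length and library) in CTRL mRNA, whereas 3 of 10 markers of other blood cells were, and the B and T cell markers MS4A1 and CD8A were at 0. The highest of the 14 in CTRL mRNA were the globins HBE1 (mean 3568 TPM), HBG1 (1996) and HBG2 (1823), which weigh most in their sum. Summed over the 14, BCR and ABL1 included, the level was 7152 to 12183 TPM in CTRL mRNA. It was 11442 to 19954 in IM 6h and 26148 to 37393 in IM 18h mRNA. In nuclear RNA it went from 10921 to 16310.4 TPM in CTRL to 33524 to 42741 in IM 18h. The part of this shift in the imatinib results below was not tested. In the following, levels of 1 gene across groups are in CPM scaled by TMM normalization, and levels of different genes are compared in TPM, which corrects for exon length. Exonic bases shared with another gene are part of that length, and their effect on the TPM of BTG1, BTG3 and TOB1 was not tested.

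In untreated cells the 5 genes were within a factor of 2 of each other in TPM and BTG2 was the lowest. CTRL mRNA held 27.4 ± 2.17 TPM of TOB1, 26.1 ± 2.41 of BTG3, 22.5 ± 0.0886 of TOB2, 19.0 ± 5.75 of BTG1 and 16.7 ± 3.23 of BTG2 (mean ± SD, n = 3). The ranges of TOB1 and BTG3 overlapped, as did those of BTG1 with TOB2 and with BTG2, so these neighbours in the order do not differ beyond their spread. BTG2 was also the lowest of the 5 in IM 1h, JTE 1h, JTE 6h, KCl 1h and KCl 3h mRNA, and it had the highest mean in IM 6h, IM 18h and JTE 18h, although in IM 6h and JTE 18h its libraries overlapped with those of TOB1, the next in order. In IM 18h it reached 86.5 ± 33.7 TPM, ahead of BTG1 with 32.5 ± 5.89, and its lowest library there, 66.3 TPM, lay above every library of the other 4 genes. The share of BTG2 in the summed TPM of the family was 15% in CTRL, 32.2% in IM 6h, 47.2% in IM 18h, 9.24% in JTE 1h and 6.59% in KCl 3h.

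**Figure D1:**
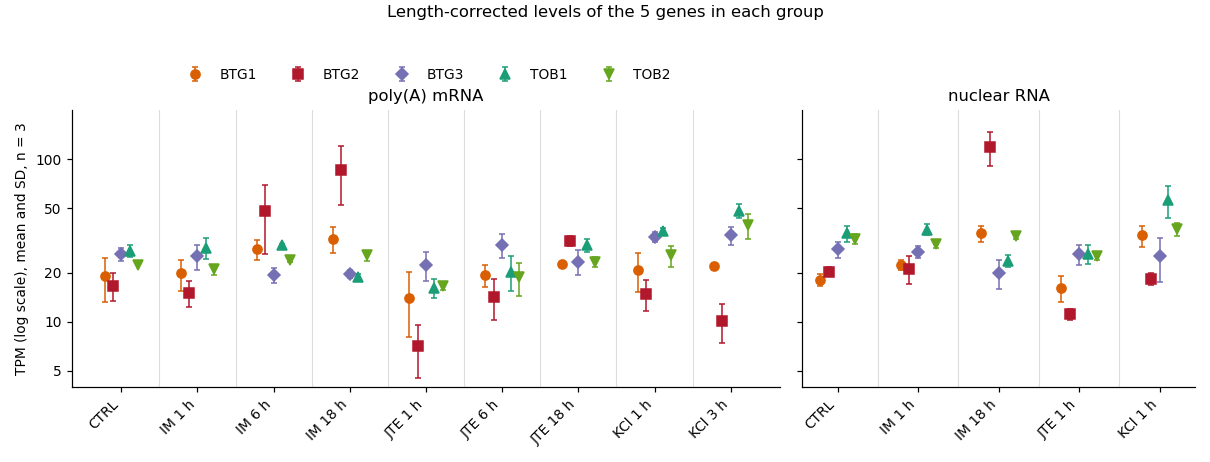
Mean level of each of the 5 genes in TPM, on a log scale, in the 9 mRNA groups and the 5 nuclear groups, with bars of 1 SD over 3 libraries. BTG2 is the lowest in CTRL mRNA at 16.7 TPM and the highest at IM 18h with 86.5 TPM in mRNA and 119 TPM in nuclear RNA.

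In nuclear RNA of untreated cells TOB1 led with 35.1 ± 3.90 TPM, followed by TOB2 with 32.4 ± 2.24, BTG3 with 27.9 ± 3.05, BTG2 with 20.4 ± 1.33 and BTG1 with 18.1 ± 1.45. Ranges of BTG3, TOB2 and TOB1 overlapped in that order, while those of BTG1 and BTG2 did not. When untreated nuclear RNA and mRNA were compared in a single fit, none of the 5 was called, where 44.9% of 17905 genes were. The log2 difference was -0.52 for BTG1 (SE 0.19, edgeR adjusted p = 0.0302) and -0.35 for BTG3 (SE 0.14, edgeR adjusted p = 0.0465), both inside the fold threshold, and these were the 2 members with an unadjusted p under 0.05. This comparison rests on libraries made by different protocols, and DESeq2 was not run on it.

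A gene was called when the adjusted p of edgeR's quasi-likelihood test (Benjamini-Hochberg over all genes tested) was under 0.05 and the log2 fold change was beyond 0.6 in either direction. In mRNA against CTRL, 1 of 5 members was called in IM 6h (background 9.94% of all genes), 2 of 5 in IM 18h (30.5%), 1 of 5 in JTE 1h (0.851%) and 2 of 5 in KCl 3h (11.9%). In IM 1h no member was called (0.0166% of all genes) and none had an unadjusted p under 0.05, and JTE 6h gave the same 2 counts of 0 against a background of 13.2%. No member was called in JTE 18h (5.39%) or KCl 1h (5.45%), with 1 member at an unadjusted p under 0.05 in each. DESeq2 called 0 members in IM 1h, JTE 6h and KCl 1h and 1 in JTE 18h, 1 in IM 6h and 2 each in IM 18h, JTE 1h and KCl 3h. In nuclear RNA 2 of 5 members were called in IM 18h (32.6%), 1 in JTE 1h (8.52%), 2 in KCl 1h (23.8%) and 0 in IM 1h (0.0456%), where 1 member had an unadjusted p under 0.05, and DESeq2 gave the same counts of members. At IM 18h the share of members called was near the background, and the description below is of single genes.

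**Figure D2:**
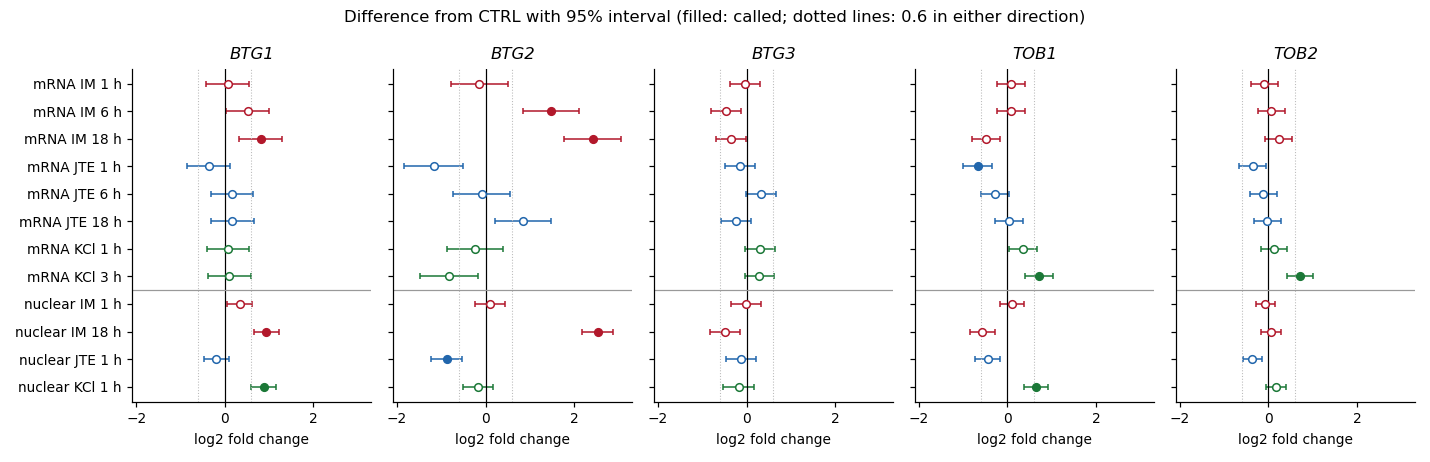
Log2 fold change against CTRL of the same fraction for each gene (horizontal axis) in each treated group (rows), with 95% intervals, filled symbols for called differences and dotted lines at 0.6 in either direction. BTG2 stands farthest to the right in IM 18h, at 2.42 in mRNA and 2.54 in nuclear RNA, and farthest to the left in JTE 1h mRNA at -1.17, a difference that was not called.

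BTG2 rose under imatinib after a lag and showed the widest range of the 5 genes. Its mRNA was at 12.5, 16.4 and 17.8 CPM in the CTRL libraries and at 15.1, 11.6 and 15.6 in IM 1h, ranges that overlapped. The IM 6h libraries held 38.9, 26.4 and 65.6 CPM and the IM 18h libraries 122, 65.1 and 63.1. Each library of both later times lay above each CTRL library. IM 6h and IM 18h overlapped with each other, as replicate 3 of IM 6h lay above replicates 2 and 3 of IM 18h. Replicate 1 of IM 18h was high in its group and lay above every IM 6h library. BTG2 was 2.80-fold above CTRL at IM 6h (log2 1.49, SE 0.31, edgeR adjusted p = 0.00183) and 5.36-fold above it at IM 18h (log2 2.42, SE 0.31, edgeR adjusted p = 2.37e-06), and the IM 1h difference was -0.14 with a 95% interval of -0.78 to 0.50. In bulk RNA of this kind, a change in the number of cells that express a gene and a change in the RNA per cell cannot be told apart.

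Nuclear RNA, which was not taken at IM 6h, showed the same pattern at IM 1h and IM 18h. BTG2 was at 16.8, 18.4 and 19.6 CPM in nuclear CTRL, at 18.5, 15.9 and 24.2 in nuclear IM 1h and at 126, 80.5 and 112 in nuclear IM 18h. The lowest IM 18h nucleus library was thus above the highest of the other 6, and the fold change was 5.81 (log2 2.54, SE 0.17, edgeR adjusted p = 1.06e-09). Between times, BTG2 was higher by 1.63 on the log2 scale at IM 6h than at IM 1h (edgeR adjusted p = 0.00103, 1 of 5 members called against a background of 8.20%) and by 2.56 at IM 18h than at IM 1h (adjusted p = 1.39e-06, 2 of 5 called against 29.3%). The step from IM 6h to IM 18h was 0.94 (SE 0.30, edgeR adjusted p = 0.0509), no member was called there (background 4.41%), 2 members had an unadjusted p under 0.05 and DESeq2 called 1, BTG2 itself. Without replicate 3 of IM 6h that step was 1.35 and was called (edgeR adjusted p = 0.00500), and without replicate 3 of IM 18h it was 1.10 and was called (adjusted p = 0.0451).

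BTG2 moved the other way in the first hour of JTE. Its mRNA was at 7.55, 4.35 and 8.81 CPM in JTE 1h, at 16.3, 10.2 and 17.4 in JTE 6h and at 24.8, 32.3 and 27 in JTE 18h. The JTE 1h libraries were all below the CTRL libraries and the JTE 18h libraries all above them. Neither difference from CTRL was called in mRNA, with -1.17 (SE 0.32, edgeR adjusted p = 0.0966) at JTE 1h and 0.85 (SE 0.31, adjusted p = 0.087) at JTE 18h, but both were called with DESeq2, whose adjusted p was 0.02 and 0.0461. With the replicate number as a block both were also called, at -1.22 (edgeR adjusted p = 0.0278) and 0.86 (adjusted p = 0.0294), and so they were at -1.19 (edgeR adjusted p = 0.0174) and 0.90 (adjusted p = 0.0126) when the numbers 1 and 2 of the CTRL mRNA libraries were exchanged. In nuclear RNA, JTE 1h libraries were at 8.86, 9.82 and 11 CPM, below each nuclear CTRL library, and BTG2 fell by 0.88 in log2 terms (SE 0.17, edgeR adjusted p = 0.00154).

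From JTE 1h to JTE 18h BTG2 mRNA rose by 2.02 on the log2 scale, 4.06-fold (SE 0.32, edgeR adjusted p = 0.000266), 2 of 5 members being called there against a background of 5.86%. The single steps were 1.09 from JTE 1h to 6h (adjusted p = 0.0265, 1 of 5 called, background 9.23%) and 0.94 from JTE 6h to 18h (edgeR adjusted p = 0.0314, 1 of 5 called, background 13.4%). Each single step lost its call in 4 of the 6 fits that left out 1 library. The first did so without replicate 1 (1.15, adjusted p = 0.0559) or replicate 2 (0.84, 0.148) of JTE 1h and without replicate 1 (1.00, 0.0881) or replicate 3 (0.94, 0.118) of JTE 6h. The second did so without replicate 1 (1.02, edgeR adjusted p = 0.0559) or replicate 2 (0.73, 0.129) of JTE 6h and without replicate 2 (0.84, 0.0937) or replicate 3 (0.99, 0.0554) of JTE 18h.

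In KCl, BTG2 was not called in either fraction by the test used throughout. KCl 1h mRNA held 14.3, 10.8 and 14.5 CPM, overlapping with CTRL, and KCl 3h held 9.84, 6.42 and 10.0 CPM, below every CTRL library. The KCl 3h difference was -0.83 (SE 0.31, edgeR adjusted p = 0.0818). It was called when these 2 groups were fitted alone (-0.85, edgeR adjusted p = 0.0409), without the filter on low counts (-0.84, adjusted p = 2.83e-05) and with the replicate number as a block (-0.86, adjusted p = 0.0298), and it was not called by DESeq2 (adjusted p = 0.0554). Nuclear KCl 1h libraries were at 14.1, 16.9 and 17.6 CPM and overlapped with nuclear CTRL (-0.17, 95% interval -0.52 to 0.17).

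**Figure D3:**
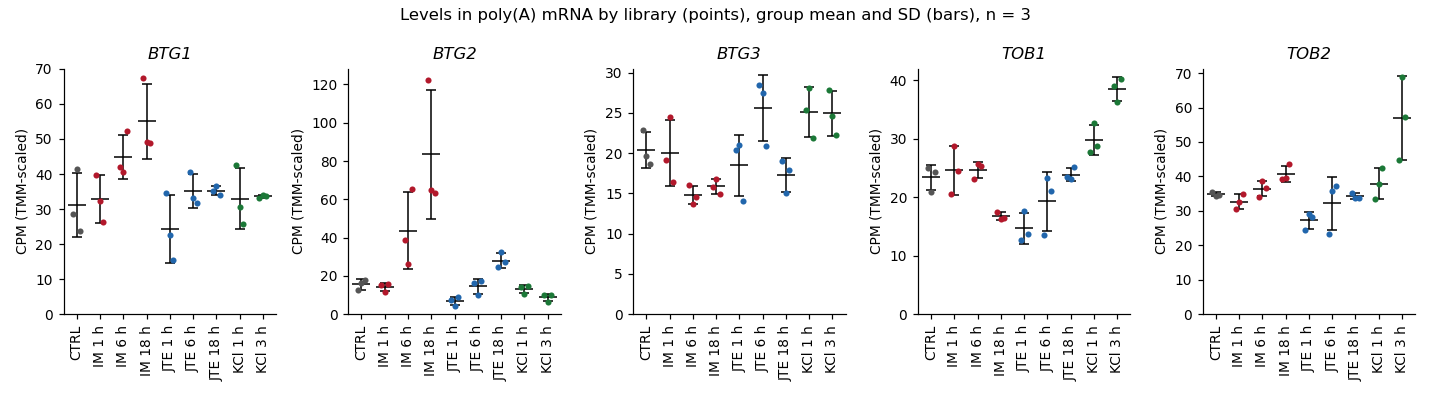
CPM of each gene in the 27 mRNA libraries by group, 1 point per library and a bar at the group mean. BTG2 is between 12.5 and 17.8 CPM in CTRL and between 63.1 and 122 CPM in IM 18h, and TOB1 and TOB2 have their highest means in KCl 3h.

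BTG1 rose at the last imatinib time and in the nuclei of KCl-treated cells. Its mRNA was at 28.7, 41.4 and 23.7 CPM in CTRL, 39.8, 32.2 and 26.3 in IM 1h, 41.9, 40.7 and 52.1 in IM 6h and 67.4, 49.0 and 48.9 in IM 18h. The CTRL libraries were the widest of the 5 genes in relative terms, IM 6h overlapped with them, and the IM 18h libraries all lay above them. At IM 18h BTG1 was 1.76-fold above CTRL (log2 0.82, SE 0.23, edgeR adjusted p = 0.00676), and at IM 6h the difference was 0.52 (adjusted p = 0.134). The IM 18h call was lost without replicate 3 of CTRL (0.62, edgeR adjusted p = 0.0623) or replicate 1 of IM 18h (0.64, 0.0526), and the IM 6h difference was called without replicate 2 of CTRL (0.75, adjusted p = 0.0485).

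Nuclear RNA gave a closer set of BTG1 values. Nuclear CTRL libraries were at 29.5, 30.2 and 26.0 CPM, IM 1h at 36.2, 37.7 and 34.5, and IM 18h at 60.6, 51.1 and 53.2. The 3 groups did not overlap with each other. BTG1 rose 1.92-fold at nuclear IM 18h (log2 0.94, SE 0.13, edgeR adjusted p = 7.94e-06), whereas the IM 1h difference of 0.34 was not called (SE 0.13, adjusted p = 0.879). It was also higher at IM 18h than at IM 1h, by 0.75 in mRNA (edgeR adjusted p = 0.0122) and by 0.60 in nuclear RNA (adjusted p = 0.000809, 3 of 5 members called against 31.3%). The mRNA call was lost without replicate 3 of IM 1h (0.59, adjusted p = 0.0805) or replicate 1 of IM 18h (0.58, 0.0843), and the nuclear difference went under the fold threshold without replicate 3 of IM 1h (0.57) or replicate 1 of IM 18h (0.53).

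In nuclei of KCl 1h cells BTG1 was at 56.8, 57.0 and 44.2 CPM, above each nuclear CTRL library, and it rose 1.84-fold (log2 0.88, SE 0.13, edgeR adjusted p = 2.55e-05). In KCl 1h mRNA it was at 42.5, 30.7 and 25.8 CPM and overlapped with CTRL (0.07, 95% interval -0.41 to 0.55), and in KCl 3h mRNA at 33.2, 34.0 and 33.8 (0.11, adjusted p = 0.825). The nuclear response to KCl exceeded the mRNA response by 0.71 on the log2 scale (SE 0.29), which was not called (edgeR adjusted p = 0.426). With the replicate number as a block it was 0.70 and not called (edgeR adjusted p = 0.158), and with the numbers 1 and 2 of the CTRL mRNA libraries exchanged it was 0.69 and was called (adjusted p = 5.43e-06). LINC01619, which shares BTG1 exon sequence on the same strand, had a mean of 1.13 CPM in nuclear CTRL and 4.81 in nuclear KCl 1h. Pairs that fit both genes alike were left unassigned, and the part of LINC01619 in the BTG1 difference was not tested. In JTE, BTG1 was not called in either fraction, with mRNA libraries at 34.7, 22.7 and 15.5 CPM in JTE 1h, 40.6, 33.1 and 31.7 in JTE 6h and 35.1, 36.5 and 34.0 in JTE 18h, which overlapped with CTRL at each time. Without replicate 1 of JTE 1h, the steps of BTG1 from JTE 1h to JTE 6h (0.87, edgeR adjusted p = 0.0178) and to JTE 18h (0.88, adjusted p = 0.0227) were called, against 0.53 for both with all libraries.

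**Figure D4:**
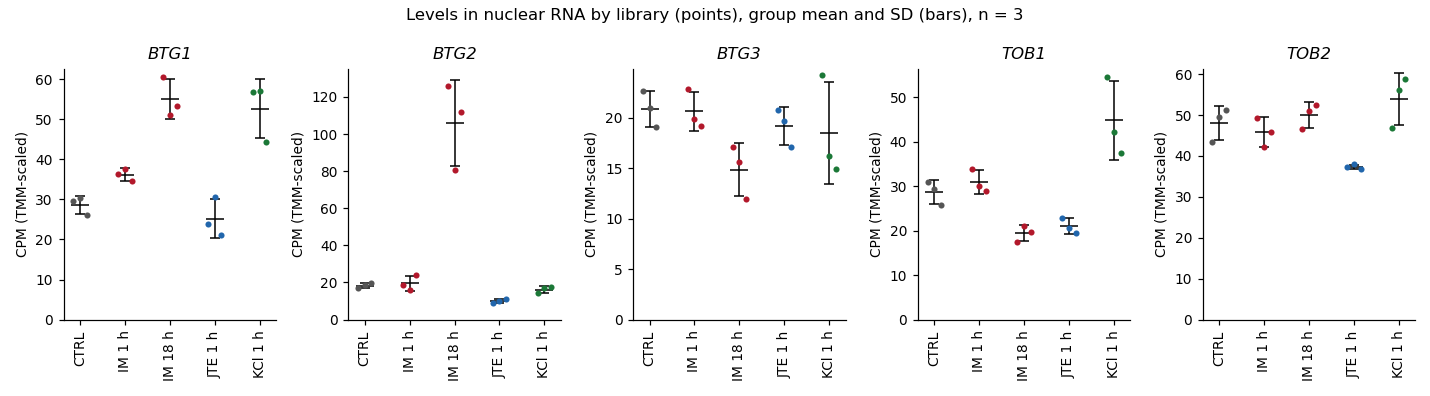
CPM of each gene in the 15 nuclear libraries by group, 1 point per library and a bar at the group mean. BTG1 is between 26.0 and 30.2 CPM in CTRL and at 44.2 CPM or above in every KCl 1h and IM 18h library.

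BTG3, which is known to bind CNOT7 and CNOT8 through its BTG domain and to restrain E2F1, was the steadiest of the 5 genes in mRNA. The ratio of its highest to its lowest group mean was 1.73, against 12.1 for BTG2, 2.62 for TOB1, 2.27 for BTG1 and 2.09 for TOB2. It was at 22.9, 19.6 and 18.6 CPM in CTRL, 16, 13.7 and 14.6 in IM 6h and 15.9, 16.8 and 14.9 in IM 18h. All 6 libraries of the later imatinib times lay below the CTRL libraries, but neither difference was called, at -0.46 (SE 0.16, edgeR adjusted p = 0.0558) and -0.36 (SE 0.16, adjusted p = 0.0787). Nuclear IM 18h libraries were at 17.1, 15.6 and 11.9 CPM against 22.7, 21.0 and 19.1 in nuclear CTRL, and the difference of -0.49 had an adjusted p of 0.0205 (edgeR) without passing the fold threshold.

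In JTE 6h, BTG3 libraries were at 28.4, 27.4 and 20.9 CPM, overlapping with CTRL (0.33, edgeR adjusted p = 0.182), and in JTE 18h at 19.0, 15 and 17.9. The step between them was -0.56 (SE 0.16, adjusted p = 0.0157), inside the fold threshold. It passed that threshold without replicate 1 of JTE 18h (-0.61) or replicate 3 of JTE 6h (-0.69). In KCl 3h mRNA the libraries were at 27.9, 24.7 and 22.3 CPM (0.29, edgeR adjusted p = 0.266), and in nuclear KCl 1h at 24.3, 16.2 and 14.9 (-0.18, adjusted p = 0.494), both overlapping with their CTRL libraries.

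TOB1 was lowered by 1 hour of JTE in mRNA and raised by KCl in both fractions. CTRL mRNA libraries were at 24.9, 21.0 and 24.4 CPM, JTE 1h at 12.6, 17.6 and 13.8, KCl 1h at 27.7, 32.7 and 28.8 and KCl 3h at 39.1, 36.2 and 40.2. The JTE 1h libraries were all below CTRL and the libraries of both KCl times all above it. TOB1 fell by 0.67 at JTE 1h (SE 0.16, edgeR adjusted p = 0.0348) and rose 1.64-fold at KCl 3h (log2 0.72, SE 0.15, adjusted p = 0.00159), and the KCl 1h difference of 0.35 was not called (edgeR adjusted p = 0.254). The JTE 1h call was lost in 5 of the 6 fits that left out 1 library, namely each fit but that without replicate 2 of JTE 1h, with log2 values of -0.73 to -0.58 and adjusted p of 0.0692 to 0.221, and in the fit of these 2 groups alone (-0.67, edgeR adjusted p = 0.297).

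In nuclear RNA, TOB1 was at 31.0, 29.3 and 25.7 CPM in CTRL, 54.6, 42.2 and 37.5 in KCl 1h, and 22.9, 20.7 and 19.5 in JTE 1h. All KCl 1h libraries were above and all JTE 1h libraries below nuclear CTRL. TOB1 rose 1.56-fold in nuclear KCl 1h (log2 0.64, SE 0.13, edgeR adjusted p = 0.00067), and the JTE 1h difference of -0.45 had an adjusted p of 0.0348 but stayed inside the fold threshold. The KCl value went under the fold threshold without replicate 3 of nuclear CTRL (0.56, edgeR adjusted p = 0.0063) or replicate 1 of nuclear KCl 1h (0.47, 0.00612). JTE 6h mRNA, at 13.6, 23.2 and 21.1 CPM, and JTE 18h mRNA, at 23.4, 23.0 and 25.1, overlapped with CTRL, and TOB1 rose by 0.70 from JTE 1h to JTE 18h (edgeR adjusted p = 0.00499).

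Under imatinib TOB1 was lower at 18 hours by less than the fold threshold. IM 18h mRNA libraries were at 17.5, 16.3 and 16.4 CPM, below those of CTRL, of IM 1h at 20.5, 28.8 and 24.4, and of IM 6h at 23.1, 25.7 and 25.2. The difference from CTRL was -0.48 in mRNA (SE 0.16, edgeR adjusted p = 0.0147) and -0.57 in nuclear RNA (SE 0.13, adjusted p = 0.00164), where libraries were at 17.5, 21.1 and 19.6 CPM. The nuclear difference passed the threshold without replicate 2 of IM 18h (-0.63). Against IM 1h, TOB1 fell by 0.67 in nuclear RNA (edgeR adjusted p = 0.000346), a call that was lost with upper quartile scaling, where the value of -0.51 was inside the fold threshold (adjusted p = 0.00211), and the mRNA difference was -0.55 (adjusted p = 0.00594), which passed the fold threshold without replicate 1 of IM 1h (-0.69).

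TOB2, the paralog of TOB1, was raised by 3 hours of KCl. Its mRNA was at 35.4, 34.3 and 34.7 CPM in CTRL, 33.5, 37.8 and 42.4 in KCl 1h and 44.7, 68.8 and 57.3 in KCl 3h. The KCl 3h libraries lay above each CTRL and each KCl 1h library. TOB2 rose 1.64-fold at KCl 3h (log2 0.71, SE 0.15, edgeR adjusted p = 0.0011), and without replicate 2 of KCl 3h the value was 0.55 and went under the fold threshold (adjusted p = 0.0147). From KCl 1h to KCl 3h no member was called (background 3.29%), 2 members had an unadjusted p under 0.05 and DESeq2 called 0, with TOB2 at 0.59 (SE 0.14, edgeR adjusted p = 0.0153) just inside the fold threshold. It passed that threshold without replicate 3 of KCl 1h (0.67) or replicate 1 of KCl 3h (0.73). In nuclear KCl 1h, TOB2 was at 46.8, 56.1 and 58.8 CPM and overlapped with nuclear CTRL at 43.4, 49.6 and 51.3 (0.17, adjusted p = 0.298).

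In JTE 1h, TOB2 libraries lay below CTRL in both fractions, at 24.6, 29.1 and 28.1 CPM in mRNA (-0.35, edgeR adjusted p = 0.486) and at 37.4, 37.9 and 36.8 CPM in nuclear RNA (-0.36, SE 0.11, adjusted p = 0.0325), the latter inside the fold threshold. In IM 18h mRNA, TOB2 was at 39.4, 39.6 and 43.5 CPM, each above every CTRL library, and the difference of 0.23 was not called (95% interval -0.07 to 0.53, edgeR adjusted p = 0.209). Nuclear IM 18h libraries, at 46.6, 50.9 and 52.5 CPM, overlapped with nuclear CTRL (0.06, 95% interval -0.17 to 0.28). In JTE 1h all 5 genes had values below 0 in mRNA, with a median of -0.36 against 0.01 over all genes. Only TOB1 was called there, and BTG1 and BTG3 overlapped with CTRL. In nuclear RNA the median was -0.36 against -0.01, and only BTG2 was called.

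The treatments were also compared directly at matched times. At 1 hour in mRNA, TOB1 was 2.03-fold higher in KCl than in JTE (log2 1.02, edgeR adjusted p = 0.000153, 1 of 5 members called, background 4.29%), and it was lower in JTE than in IM (-0.74, adjusted p = 0.0141, 1 of 5, background 1.09%). The TOB1 difference between JTE 1h and IM 1h lost its call without replicate 2 (-0.61, edgeR adjusted p = 0.122) or 3 (-0.74, 0.0566) of IM 1h and without replicate 1 (-0.65, 0.0745) or 3 (-0.70, 0.104) of JTE 1h. BTG2 differed by 0.93 between KCl and JTE (edgeR adjusted p = 0.0994), and in the blocked fit, where same-numbered libraries are paired, it was called (0.96, adjusted p = 0.0356). No member was called between KCl 1h and IM 1h (background 6.37%), 0 had an unadjusted p under 0.05 and DESeq2 called 0.

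At 6 hours BTG2 was 2.98-fold higher in IM than in JTE (log2 1.57, edgeR adjusted p = 0.000387) and BTG3 was lower in IM (-0.79, adjusted p = 0.000615), 2 of 5 members called against 23.8% of all genes. With all libraries and both thresholds, no other comparison called BTG3. Its step from JTE 6h to JTE 18h was called without replicate 1 of JTE 18h or replicate 3 of JTE 6h. At 18 hours BTG2 was again 2.98-fold higher in IM (log2 1.57, edgeR adjusted p = 0.000227) and BTG1 1.56-fold higher (log2 0.65, adjusted p = 0.0277), 2 of 5 called against 30.3%. The BTG1 call was lost without replicate 1 of IM 18h (0.47, edgeR adjusted p = 0.155) or any 1 library of JTE 18h (0.60 to 0.66, adjusted p 0.0625 to 0.0917).

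In nuclear RNA at 1 hour, BTG1 (log2 1.07, edgeR adjusted p = 5.34e-06), BTG2 (0.71, adjusted p = 0.00432) and TOB1 (1.09, adjusted p = 4.03e-06) were higher in KCl than in JTE, 3 of 5 called against 15.9%. TOB2 was at 0.53, inside the fold threshold, and passed it without replicate 1 of KCl 1h (0.62). Between JTE and IM, BTG2 was lower in JTE (-0.98, edgeR adjusted p = 0.000564, 1 of 5 called lower, against 0.584% of all genes called lower). Of the 21929 genes tested there, 1627 were called higher and 128 lower. BTG1 passed the fold threshold there without replicate 2 of JTE 1h (-0.69) and TOB1 without replicate 3 of IM 1h (-0.61). Between KCl and IM no member was called (background 22.1%), 3 had an unadjusted p under 0.05 and DESeq2 called 0, with BTG1 at 0.54 and TOB1 at 0.53 inside the fold threshold. Without replicate 3 of nuclear KCl 1h both of them passed it (0.65 and 0.65).

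Whether the nuclear and mRNA responses differed was tested for each shared treatment on the 12 libraries involved. No member was called for IM 1h (background 0.00%), IM 18h (0.0901%), JTE 1h (0.0605%) or KCl 1h (0.668%), 0 members had an unadjusted p under 0.05 in the first 3 and 2 had one in KCl 1h, and DESeq2 called 0 in each. For BTG2 at IM 18h the nuclear response exceeded that of mRNA by 0.17 with a 95% interval of -0.57 to 0.91. In KCl 1h the values were 0.71 for BTG1 and -0.58 for BTG3 (SE 0.26, edgeR adjusted p = 0.472).

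Genes that work with the family were listed by role. Of the 15 subunits of the CCR4-NOT, PAN2-PAN3 and PARN deadenylases tested, 2 rose and 1 fell at IM 18h in mRNA, against a background of 30.5% of all genes, with a median of 0.12 against 0.04 over all genes. The count is below that background and the genes are described singly. PAN2, the catalytic subunit of the PAN2-PAN3 deadenylase, rose from 30 ± 0.768 to 73.3 ± 4.54 CPM (log2 1.29, edgeR adjusted p = 4.63e-07). CNOT7, a deadenylase that BTG and TOB proteins bind, went from 160.6 ± 17.3 to 103.5 ± 6.54 CPM and fell by 0.63 (adjusted p = 0.000152), and by 0.71 in nuclear RNA (edgeR adjusted p = 8.93e-05). Its paralog CNOT8 was at 79.0 ± 13.3 in CTRL and 109.6 ± 7.64 CPM in IM 18h, a difference of 0.47 (adjusted p = 0.00135) inside the fold threshold. At KCl 1h the called subunit was PAN3 (0.61, 1 of 15, background 5.45%) and at KCl 3h CNOT4 (0.61, 1 of 15, background 11.9%). None was called in JTE 1h (background 0.851%), JTE 6h (13.2%) or JTE 18h (5.39%) mRNA.

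Of 11 tested partners and regulators of the proteins, 3 rose and 2 fell at IM 18h in mRNA (background 30.5%), with a median of 0.13 against 0.04 over all genes. ERBB2, the receptor from which TOB takes its name, rose from 7.57 ± 1.09 to 29.3 ± 1.77 CPM (log2 1.95, edgeR adjusted p = 1.00e-08), and MAPK3, the ERK1 kinase, rose by 0.66 (adjusted p = 0.00162). PRMT1, an arginine methyltransferase that binds BTG1 and BTG2, fell by 1.19 (edgeR adjusted p = 0.000127), and CPEB4, an RNA-binding protein of the family that TOB links to deadenylases, fell by 1.00 (adjusted p = 2.94e-05).

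Of 15 other FOXO target genes tested, 6 rose and 0 fell at IM 6h in mRNA (median 0.87, background 9.94% of all genes called), where BTG1 itself was not called. At IM 18h 11 of the 15 rose and 0 fell in mRNA (median 1.43, background 30.5%), and in nuclear RNA too 11 rose and 0 fell (median 1.09, background 32.6%), against medians of 0.04, 0.04 and 0.00 over all genes. INSR, the insulin receptor, rose from 2.33 ± 0.666 to 16.7 ± 7.19 CPM (log2 2.84, edgeR adjusted p = 0.000119) and SESN3, a stress-induced regulator of mTORC1, from 5.33 ± 0.675 to 19.6 ± 6.05 CPM (log2 1.88, adjusted p = 3.72e-06). In nuclear KCl 1h, where BTG1 rose, 4 of the 15 rose, 0 fell and 11 were not called (median 0.42, against 0.02 over all genes). The count called in either direction is near the background of 23.8%, which also covers both directions. Among the 21929 genes tested, 3362 were called higher and 1865 lower. In KCl 3h mRNA, where BTG1 was not called, 2 rose and 1 fell (background 11.9%), among them BCL6 (2.28) and TXNIP (-2.57).

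The 19 tested p53 target genes were called in both directions where BTG2 rose. At IM 18h in mRNA 3 rose and 5 fell (median -0.07, background 30.5%), and at IM 6h 2 rose and 4 fell (background 9.94%). TP53INP1, a stress-induced regulator of autophagy and cell death, rose from 3.75 ± 0.596 to 28.3 ± 11.6 CPM at IM 18h (log2 2.91, edgeR adjusted p = 1.55e-06), and DDB2, a sensor of DNA damage, rose by 1.42 (adjusted p = 2.72e-06). PLK3, a stress kinase, fell by 3.18 (edgeR adjusted p = 2.67e-05) and TNFRSF10B, a death receptor, by 2.01 (adjusted p = 3.64e-05). K562 cells are known to lack functional p53, and no cause of the BTG2 rise was tested.

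Of 16 immediate early genes tested in mRNA, 1 fell and 15 were not called at IM 1h (median -0.48, against 0.00 over all genes, background 0.0166%). At IM 6h 8 fell, 0 rose and 8 were not called (median -0.93, background 9.94%), and at IM 18h 11 fell, 1 rose and 4 were not called (median -1.33, background 30.5%). EGR1, a growth factor-induced transcription factor, went from 103 ± 59.3 to 1.62 ± 0.216 CPM at IM 18h and fell by 5.99 (edgeR adjusted p = 1.46e-05), and the gene that rose was DUSP1, a phosphatase of MAP kinases (0.84, adjusted p = 8.00e-05). In KCl 3h, 10 of 16 rose and 0 fell (median 1.28, background 11.9%), led by FOSB (4.88) and FOS (4.37), while BTG2 was at -0.83 and not called. In JTE 1h, 2 of 16 fell and 0 rose in mRNA (background 0.851%). These were ZFP36 (-1.10), which codes for a protein that recruits CCR4-NOT to AU-rich mRNA, and DUSP1 (-0.78). In nuclear RNA of JTE 1h 5 of 17 fell and 0 rose (background 8.52% in either direction). Among all 21929 genes tested, 332 were called lower and 1536 higher in that comparison.

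Of 17 genes of G1 progression and proliferation, 2 fell and 0 rose at IM 6h (background 9.94%) and at IM 18h (background 30.5%) in mRNA. CCND2, a D-type cyclin that drives G1 progression, went from 202 ± 28.5 CPM to 63.8 ± 13.2 at IM 6h and 38.5 ± 2.28 at IM 18h, and fell by 1.66 (edgeR adjusted p = 9.53e-08) and 2.39 (adjusted p = 4.84e-11). The medians of this list, 0.13 and 0.07, were near those of all genes.

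The course of each member over the 9 mRNA group means was compared with that of 8805 genes at 10 CPM or more, as Pearson correlations of log2(CPM + 0.5). These describe 9 points that share libraries and the same CTRL cells, with no test. BTG2 was most like KMT2A (0.988), THAP6 (0.975) and TAL1 (0.969), and BTG1 most like PPP1R12B (0.963), ABHD5 (0.946) and ATM (0.944). BTG3 was most like ERLIN1 (0.977), CEP85L (0.963) and PMAIP1 (0.952). TOB1 was most like SNHG12 (0.942), ZNF280A (0.904) and PTPDC1 (0.904), and TOB2 most like DUSP1 (0.973), PPP1R15A (0.925) and SAT1 (0.909). Among the members themselves, BTG1 and BTG2 gave 0.916, TOB1 and TOB2 0.738 and BTG2 and BTG3 -0.674.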

How the data were processed

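RNA-seq counts were deposited by the authors as 2 tables of whole-number read pairs per Ensembl gene, with exon coordinates and exon length in bases. Per the study's methods, reads were trimmed and deduplicated with fastp, aligned to hg38 (GRCh38.p14 in the labels) with STAR, unique alignments only, and assigned to exons with featureCounts without a strand option. The annotation release is not given in the sources used here. Deduplication by sequence can lower the counts of abundant short transcripts.

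The members and gene lists were chosen with earlier results of these data known. Counts were fitted in R 4.3.3 with edgeR 4.0.16 (TMM, filterByExpr, robust quasi-likelihood test, 1 term per group), separately for mRNA and nuclear RNA. Calls needed an adjusted p (Benjamini-Hochberg) below 0.05 together with a difference of over 0.6 in log2 units. CPM used TMM-scaled totals and TPM the deposited exon lengths. Nuclear and mRNA responses were compared by an interaction term. Scripts were tested on simulated data. List genes were named by rule, up to 2 called genes per direction, list and comparison with CTRL, taken by size of change at 10 CPM or more in the higher group, beside CNOT7 and CNOT8.

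The labels call the replicates biological. No 2 libraries of a group agreed within sampling noise (2.23 to 54.2 chi-square units per gene). Same-numbered libraries deviated together (r above 0.1 in every pair) in the 4 nuclear comparisons with CTRL and in most comparisons between treatments, so there the numbers pair the samples, as a pattern of the data. In mRNA against CTRL they did not by the deposited numbers (r from -0.368 to 0.877). The study's list of read totals gives CTRL mRNA replicates 1 and 2 in the other order than the deposited columns, whose names were followed here, and with these numbers exchanged r was above 0.1 in every pair in 7 of the 8 comparisons (0.0553 to 0.877). The numbering enters only blocked fits and the names of left-out libraries. Alternatives were DESeq2 1.42.0, other scalings, no filter, no fold threshold, a replicate block, the same block with these numbers exchanged (chosen after seeing the data), the 2 groups alone, each library left out, totals without genes over 1% of the counts, and thinning to 16439848 read pairs.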

Additional observations from a re-analysis of the deposited data

Results flagged for a closer look

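Differences between time points of a single treatment were tested directly, and 10 of them were called in members of the family. Under imatinib in mRNA, BTG2 was higher at 6 hours than at 1 hour by 1.63 on the log2 scale, and at 18 hours than at 1 hour by 2.56, and BTG1 was higher at 18 hours than at 1 hour by 0.75. In nuclear RNA the change from 1 hour to 18 hours of imatinib was 2.44 for BTG2, 0.60 for BTG1 and -0.67 for TOB1. Under JTE in mRNA, BTG2 gained 1.09 from 1 hour to 6 hours, 0.94 from 6 hours to 18 hours and 2.02 from 1 hour to 18 hours, and TOB1 gained 0.70 from 1 hour to 18 hours. Groups of 3 libraries were not tested for single outlying samples.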

How the results depend on the processing

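Over 160 combinations of a member and a comparison, 31 were called, 20 of these held under every alternative, 10 were lost in at least 1 fit that left out a library, and 0 reversed. The BTG2 rise at IM 6h and IM 18h held throughout. The cause of the changes below was not tested unless the alternative itself gives it. Without the fold threshold, called members went from 10 to 16 between treatments and from 5 to 9 in nuclear RNA against CTRL, with 4 in IM 18h and 3 in JTE 1h. By single comparison it gave 1 for IM 18h and IM 6h, 2 for JTE 18h and JTE 6h, 1 for KCl 3h and KCl 1h, and in nuclear RNA 2 for KCl 1h and IM 1h and 3 for JTE 1h and IM 1h. Without the filter on low counts, the count was 2 in JTE 1h, 1 in JTE 18h, 1 for IM 18h and IM 6h, 1 for KCl 3h and KCl 1h, 2 for KCl 1h and JTE 1h, 2 for JTE 1h and IM 1h, 1 for IM 18h and JTE 18h, and 1 for the nuclear minus mRNA response to KCl 1h (BTG1, 0.76, edgeR adjusted p = 0.0476). DESeq2 called 2 in JTE 1h, 1 in JTE 18h and 1 for IM 18h and IM 6h. RLE and upper quartile scaling gave 1 for IM 18h and IM 6h, and upper quartile 1 for KCl 3h and KCl 1h. Upper quartile scaling also lost nuclear TOB1 between IM 18h and IM 1h (-0.51), and dropping the filter lost BTG1 between IM 18h and JTE 18h (0.57) and, in nuclear RNA, IM 18h and IM 1h (0.595), each by the fold threshold.

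Fits of the 2 groups alone gave 0 in JTE 1h, 0 for JTE 6h and JTE 1h, 0 for JTE 1h and IM 1h and 1 in JTE 18h, and in KCl 3h these fits and those without the filter called BTG2 as well (3 of 5). With the replicate block, 2 were called for KCl 1h and JTE 1h, where the numbers pair the libraries. Where they do not, it gave 2 in JTE 1h and 1 in JTE 18h, and 1 for IM 18h and IM 6h, each time by adding BTG2, and BTG2 was also added at KCl 3h (-0.86, edgeR adjusted p = 0.0298). With numbers 1 and 2 of CTRL mRNA exchanged, chosen after seeing the data, the block gave 2 in JTE 1h, 1 in JTE 18h, BTG2 at KCl 3h (-0.83, edgeR adjusted p = 0.0215) and 1 for the nuclear minus mRNA response to KCl 1h (BTG1, 0.69). Neither block took a call away. Leaving out 1 library gave 1 to 2 calls in IM 6h, IM 18h and KCl 3h and 0 to 1 in JTE 1h. It gave 0 to 1 for IM 18h and IM 6h, 1 to 3 for IM 18h and IM 1h, 0 to 1 for JTE 6h and JTE 1h, 0 to 2 for JTE 18h and JTE 6h, 0 to 1 for KCl 3h and KCl 1h, 0 to 1 for JTE 1h and IM 1h and 1 to 2 for IM 18h and JTE 18h. In nuclear RNA it gave 1 to 2 in KCl 1h, 0 to 2 for KCl 1h and IM 1h and 1 to 2 for JTE 1h and IM 1h. With CPM from unscaled totals, the mean of BTG1 was 32.8 in KCl 3h and 36.9 in JTE 18h, of TOB1 25.0 and of TOB2 35.9 in JTE 18h, each moved by more than 1 SD. The lowest count of a member was 84.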
